A study of Mus musculus with 9 samples.

Results

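The calf muscle of saline-injected wild-type mice is described here from 3 of the 9 RNA sequencing libraries of a study, those titled as saline replicates 1, 2 and 3, and from all 55401 genes that each count table lists. The study, on a decoy RNA-binding protein for myotonic dystrophy, injected the gastrocnemius of wild-type FVB mice with saline or with 1 of 2 adeno-associated virus vectors, and the 6 vector libraries were not used here. The labels give an age of 2 to 3 months, without saying whether at injection or collection, and killing 7 weeks after the injection. Total RNA was extracted with Trizol from snap-frozen muscle, cleared of DNA, and 250 ng of it went into each KAPA mRNA library. All 3 libraries therefore come from muscle that received a saline injection, and no library of uninjected muscle is part of this group. Whether each library is from a different mouse, and which portion of the muscle was taken, is not given in the labels, so the spread below is that between libraries.

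Skeletal muscle fibres are long cells with many nuclei, filled with sarcomeres in which myosin thick filaments pull on actin thin filaments. Each fibre expresses mainly 1 myosin heavy chain and the troponin, light chain and calcium pump isoforms that go with it. Slow fibres use the heavy chain of Myh7 and are oxidative, and fast fibres use those of Myh2, Myh1 or Myh4, from the more oxidative to the more glycolytic. The mouse gastrocnemius is a mixed muscle, known to be dominated by fast glycolytic fibres with a deeper oxidative part.

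Depth was high and alike. The gene counts came to 72825219, 69209598 and 76970849 in replicates 1, 2 and 3, and 13496 to 13561 genes reached 1 CPM in a library (counts-per-million, on the TMM-adjusted library size). A gene was taken as detected at 1 CPM or more in all 3 libraries, which 13227 genes were, 11644 of them protein-coding. CPM does not correct for gene length, so levels of different genes are compared in TPM (transcripts-per-million, counts per kilobase of merged exons, scaled to the same total in each library). Replicates 1 and 2 were the closest pair. Replicate 3 stood apart from both. The median slow share, some list sums and the spread over all genes are also given without it. Other results that rest on it are mostly given per library.

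A small number of genes held much of the transcriptome. In the cumulative curve, 50% of the gene counts was reached with 80, 82 and 97 genes in replicates 1, 2 and 3, and 90% with 3889, 3910 and 4089 genes. The 10 most abundant genes held 26.9, 26.9 and 24.9% of the counts. The single most abundant gene, Myh4, held 6.4, 5.61 and 4.37%, and replicate 3 was the lowest of the libraries in both shares. Above a fixed level, 80 genes stood at 1000 CPM or more in all libraries and 1094 at 100 CPM or more.

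**Figure D1:**
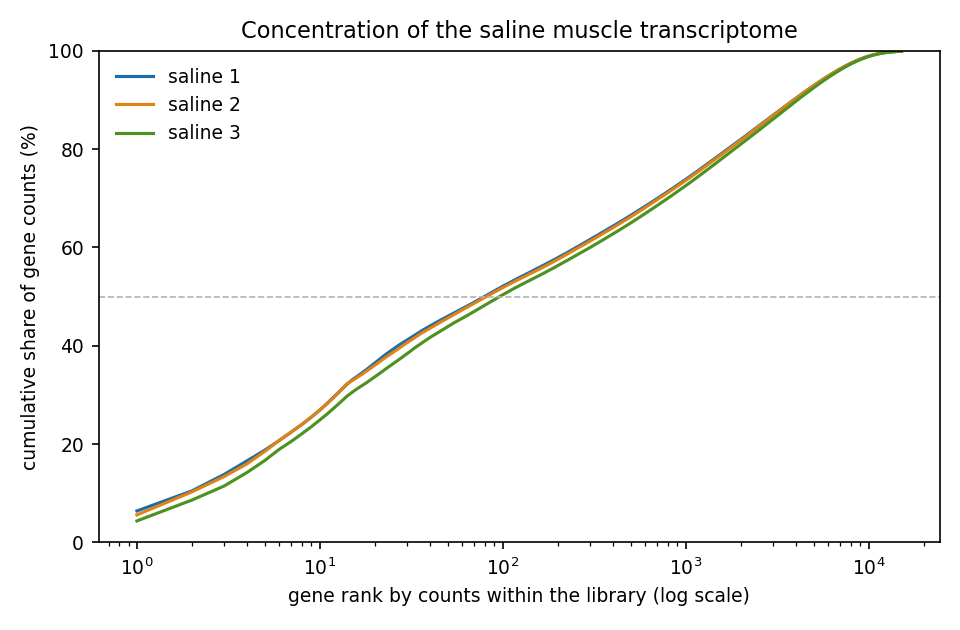
Cumulative share of gene counts (percent, y axis) against gene rank within each library (log x axis), 1 line per saline library, over genes with at least 100 counts in all. The dashed line marks 50% of the counts, which the lines cross at ranks 80, 82 and 97.

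By counts the list was led by the fast myosin and the mitochondrial genome. Myh4, the myosin heavy chain of the fastest fibres (GRCm38 chromosome 11, 67238029 to 67260446), had 65046, 56783 and 42537 CPM in replicates 1, 2 and 3. Atp2a1, the calcium pump that refills the sarcoplasmic reticulum of fast fibres (GRCm38 chromosome 7, 126445858 to 126463108), had 34035, 31657 and 26739 CPM. For both genes replicate 1 was the highest library and replicate 3 the lowest. Acta1, the skeletal actin of the thin filament (GRCm38 chromosome 8, 123891769 to 123894751), had 28079, 26078 and 27796 CPM, replicate 2 being the lowest, with a coefficient of variation (CV, SD over mean) of 3.96%. The 25 genes with most CPM included 7 mitochondrially encoded genes, 17 nuclear protein-coding genes and 1 nuclear ribosomal RNA gene. Besides the 3 above, the coding ones were Ckm, Tnnt3, Aldoa, Ttn, Tpm1, Pygm, Mylpf, Neb, Tnnc2, Actn3, Mybpc2, Pvalb, Myh1 and Tnni2, from 15814 CPM for Ckm to 4568 CPM for Tnni2.

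Correcting for length changed the order. Ttn codes for titin, the giant spring of the sarcomere, and its merged exons measure 116825 bases: it ranked 12 by CPM and 279 by TPM, at 295, 279.7 and 235 TPM. Neb, the ruler protein of the thin filament, went from rank 19 to rank 116. On the TPM scale Acta1 led the nuclear protein-coding genes, with 43925, 41218 and 44642 TPM in replicates 1, 2 and 3. It was followed by Myh4 at 25980, 22915 and 17443 TPM, Tnnt3 at 23445, 23030 and 18943 TPM and Atp2a1 at 23520, 22104 and 18971 TPM. Tnnt3 is the fast troponin T that ties the calcium sensor to tropomyosin, and the order of these 3 genes changed from library to library (means of 22112 ± 4325, 21806 ± 2488 and 21532 ± 2328 TPM for Myh4, Tnnt3 and Atp2a1). These values use merged exon lengths, and Tnnt3 has 1583 merged exon bases but a longest transcript of 1079. Both lengths are 6016 for Myh4 and 3477 for Atp2a1, so the place of Tnnt3 among these 3 genes depends on the length used. Tnnc2, the fast calcium-binding troponin, had 18960 ± 1544 TPM, and Mylpf, the fast regulatory light chain, 15151 ± 1395 TPM.

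The next places went to energy supply and calcium buffering. Ckm, the creatine kinase that regenerates ATP from phosphocreatine, had 13190 ± 1577 TPM. Pvalb, the calcium buffer parvalbumin of fast fibres, had 12424 ± 2062 TPM, and Aldoa, aldolase of glycolysis, 11282 ± 807 TPM. With merged exon lengths, Ckm was above Pvalb and Pvalb above Aldoa in each of the 3 libraries. The merged exons of Aldoa measure 2911 bases against 1549 for its longest transcript, and those of Ckm 2913 against 2742. The place of Aldoa among these genes therefore depends on the length used. The remaining 16 of the 25 highest ran from Tnni2 at 7418 TPM to Des at 1969 TPM. They comprised the thin and thick filament genes Tnni2, Myl1, Tpm1, Mybpc2 and Tpm2. They included the Z-disc and filament genes Actn3, Tcap and Des, and the calcium store gene Casq1. They also comprised the glycolytic genes Eno3, Pygm, Pgam2 and Pfkm, the oxygen carrier Mb, the carbonic anhydrase Car3 and the mitochondrial ADP/ATP carrier Slc25a4. Slc25a4 (1.91%) and Des (1.94%) had the lowest CV of CPM among the 25, and Mb (27.7%), Tpm2 (22.1%) and Myh4 (20.8%) the highest. Mb and Tpm2 were highest in replicate 3, at 4250 and 4316 TPM, where Myh4 was lowest. Replicate 3 was the lowest library for 18 of the 25 genes on the TPM scale and the highest for 6, Acta1, Tpm2, Tcap, Mb, Car3 and Des, while Slc25a4 lay between the others. Tnnc2 shares 74% of its exon bases with a gene on the other strand.

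**Figure D2:**
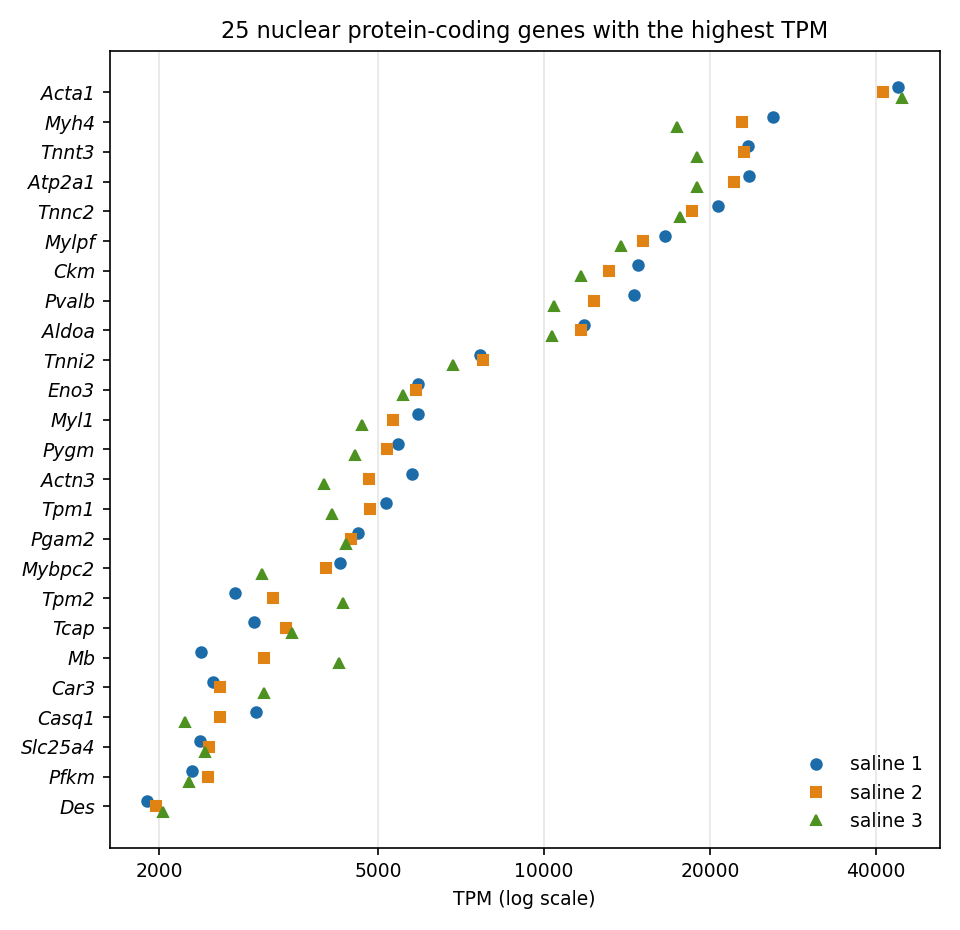
TPM (log x axis) of the 25 nuclear protein-coding genes with the highest mean TPM, 1 point per saline library. Acta1 leads at 41218 to 44642 TPM. Replicate 3 is lowest for Myh4, Pvalb and Actn3, and highest for Tpm2 and Mb.

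The start regions of these genes were read from RefSeq (GRCm38.p6), which gave 20 of the 25 genes, each with the 250 bases before to 50 after its start. Muscle regulatory factors such as MyoD and myogenin are known to bind E-boxes, of which CAGCTG is 1 form, and TATAAA is the classic core promoter element. The 100 bases upstream of the start are shown for 3 of the genes that lead the ranking, in lower case with CAGCTG and TATAAA in capitals on either strand.
Myh4 (chr11:67237712-67237811, plus strand): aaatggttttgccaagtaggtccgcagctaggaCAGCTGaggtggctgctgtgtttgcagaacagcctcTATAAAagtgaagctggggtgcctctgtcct
Atp2a1 (chr7:126463074-126463173, minus strand): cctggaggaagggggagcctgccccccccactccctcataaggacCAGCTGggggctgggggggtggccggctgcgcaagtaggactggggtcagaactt
Acta1 (chr8:123894776-123894875, minus strand): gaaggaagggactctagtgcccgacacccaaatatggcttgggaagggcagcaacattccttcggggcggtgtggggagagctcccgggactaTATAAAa
CAGCTG, a palindrome that reads the same on both strands, was found in the 300-base window of 14 of these 20 genes (70%), counting a gene with several starts once if any held it. The same held for 18.5% of 9179 detected nuclear protein-coding genes in the table and for 16.3% of all 32851 promoters. TATAAA on either strand was found in 3 of the 20 (15%), against 8.86% of the detected nuclear protein-coding genes and 13.6% of all promoters. The MEF2-type motif, CTA and TAG with 4 bases of any kind between them, was found in 1, against 3.86% and 3.69% of the same backgrounds. These matches describe letters in a window and no binding was measured.

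Mitochondrially encoded transcripts made up 13.3, 15.3 and 15.4% of the gene counts and 26.6, 31 and 30.4% of TPM in replicates 1, 2 and 3. Replicate 1 was the lowest on both scales. All 13 mRNAs of the mitochondrial genome were detected. mt-Co1, the catalytic subunit of cytochrome c oxidase, had the highest TPM of any gene, 64435, 74355 and 65918. The complex I subunit mt-Nd1 had 54949 ± 4238 TPM and the cytochrome b gene mt-Cytb 50541 ± 3976 TPM. The other 2 subunits of the same oxidase stood far lower, mt-Co2 at 5398 ± 794 TPM and mt-Co3 at 4560 ± 615 TPM, as did the ATP synthase genes mt-Atp6 (4121 TPM) and mt-Atp8 (2329 TPM). Parts of the mitochondrial genome have near-identical copies in the nuclear genome, and reads that align to several places are not in these counts, so the levels among these genes are uncertain. The mitochondrial ribosomal RNAs varied more, mt-Rnr1 at 4908, 6180 and 10897 TPM and mt-Rnr2 at 8239, 10048 and 12962 TPM in replicates 1, 2 and 3, both highest in replicate 3.

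Among nuclear noncoding genes, the 10 with most CPM were of mixed kind. CT010467.1, annotated as ribosomal RNA (GRCm38 chromosome 17, 39846353 to 39848827), had 9673, 4519 and 7076 CPM, and Gm23935, annotated as a miRNA of 57 bases, 1160, 531 and 742 CPM. Both were highest in replicate 1 and lowest in replicate 2. The length of Gm23935 puts it at TPM rank 6, a value carried by its short length. Malat1, a nuclear speckle RNA, had 1560, 1471 and 1304 CPM and Neat1, the scaffold of paraspeckles, 946, 1199 and 1047 CPM. H19, an imprinted RNA of muscle and embryo, had 949, 841 and 1410 CPM, with replicate 3 highest. The list also held Nctc1 (295 CPM), a transcript on the side of H19 away from Igf2, and the models 1700020I14Rik (609 CPM) and Gm15459 (384 CPM). The processed pseudogenes Mylf-ps (2556, 2307 and 1912 CPM) and Tpt1-ps3 (872 CPM) completed it. Mylf-ps resembles Mylpf and Tpt1-ps3 resembles Tpt1, so counts can be split between copy and parent and both levels are uncertain.

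By annotated biotype, protein-coding genes held 95.5% ± 0.417 of the counts (SD, n = 3). Processed pseudogenes held 1.48%, mitochondrial ribosomal RNA 0.967%, nuclear ribosomal RNA 0.709% and long intergenic noncoding RNA 0.67%. The libraries were made for mRNA, so levels and shares of ribosomal RNA describe the libraries and may not be those of the tissue. By function, with every gene put in 1 class, genes of the contractile apparatus held 20.5% ± 1.1 of the counts. The mitochondrial genome held 14.7% ± 1.19 and genes of glycolysis, glycogen and phosphagen 6.36% ± 0.36. Calcium handling and excitability held 5.95% ± 0.452, and nuclear-encoded mitochondrial energy genes 2.83% ± 0.181. Chaperones and protein degradation came to 0.956% ± 0.0933, markers of other cell types and collagens to 0.711% ± 0.043 and cytosolic ribosomal proteins to 0.468% ± 0.0175. The ribosomal share is uncertain, since reads that align to several places are not in these counts and Rpl13 and Rpl24 were listed at 0. Genes in none of the lists held the remaining 47.6% ± 0.762. Single genes also set the shares of chromosomes: Myh4 held 45% of the CPM of chromosome 11, Acta1 49.6% of chromosome 8 and Tpm1 28% of chromosome 9.

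The sarcomere list was detected whole, 34 of 34. Summed over the list, thin filament genes had 53158 ± 1908 TPM, most of it Acta1, and Z-disc genes 17475 ± 237 TPM. After Acta1, the list was led by the fast Z-disc crosslinker Actn3 (5753, 4802 and 3986 TPM), the tropomyosin Tpm1 (5170, 4837 and 4122 TPM) and the fast myosin-binding protein Mybpc2 (4259, 4023 and 3076 TPM), all 3 lowest in replicate 3. The second tropomyosin gene, Tpm2, ran the other way, with 2749, 3215 and 4316 TPM. Tcap, the cap of titin at the Z-disc, had 3286 ± 269.5 TPM, Des, the intermediate filament desmin, 1969 ± 63.6 TPM and the Z-disc gene Myot 1673 ± 125 TPM.

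The 25 genes of excitation-contraction coupling were all detected. Calcium store, pump and buffer genes dominated it, with 39515 ± 4735 TPM against 1765 ± 84.4 TPM for the voltage sensor and release channel genes. Cacna1s, the voltage sensor of the tubule membrane, had 512, 517 and 481 TPM and Ryr1, the release channel it opens, 501, 459.6 and 443 TPM. The mean of Cacna1s was 503 ± 19.4 TPM and that of Ryr1 468 ± 29.7 TPM. With merged exon lengths Cacna1s was above Ryr1 in each library. The merged exons of Ryr1 measure 21838 bases against 15358 for its longest transcript, and those of Cacna1s 6550 against 6251. Which of the 2 genes is higher therefore depends on the length used. The store proteins Casq1, Hrc and Srl had 2603, 897 and 690.0 TPM and Trdn, which anchors the store to the channel, 632 TPM. Small regulators of the pump were lower in TPM: Mrln had 49, 44 and 36.1, Pln 10.2, 9.56 and 21.6 and Sln 3.94, 7.0 and 23.7. Pln shares 64.7% of its exon bases with a gene on the other strand. Of the membrane excitability list 13 of 13 were detected, with the sodium channel Scn4a at 137 ± 6.94 TPM and the chloride channel Clcn1 at 94.9 ± 3.71 TPM.

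The dystrophin complex and its repair partners were detected in 15 of 16 members. Sgca, alpha-sarcoglycan, led with 175, 173 and 167 TPM, and Dag1, Sgcb, Ano5, Cav3 and Dysf lay between 112 and 49.4 TPM. Dmd, dystrophin, lies outside the rule for naming genes and had 39.5 ± 4.2 TPM. The 1 member below 1 CPM was Capn3, the muscle calpain, at 0.865, 0.512 and 0.657 CPM. Capn3 shares 7.68% of its exon bases with another gene on its strand. How such overlaps were counted is not given, and their part in this low value was not tested.

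The list of glycolysis and glycogen, which includes glucose entry and lactate transport, was detected in 31 of 31 members. It summed to 38998, 38733 and 35670 TPM in replicates 1, 2 and 3. Its 14 genes of glycolysis itself summed to 28891 ± 1279 TPM. The muscle isoforms Aldoa, Eno3, Pgam2 and Pfkm had 11282, 5770, 4470 and 2338 TPM, and Pygm, the phosphorylase that opens glycogen, 5050 TPM. Ldha, Tpi1 and Pkm followed with 1610, 1284 and 1026 TPM. Gapdh, a step of the same pathway with many processed pseudogenes, had only 30.8, 32.1 and 28.4 TPM; it lies outside the rule for naming genes, was singled out for this value, and its count is uncertain. Among the phosphagen and adenylate enzymes Ckm was far above the mitochondrial creatine kinase Ckmt2, 13190 against 1552 ± 236 TPM. The others had 1148 ± 67.1 TPM for Ak1, 862 ± 21.2 TPM for Adssl1 and 792 ± 128 TPM for Ampd1, with the creatine transporter Slc6a8 (66 TPM) and the brain-type Ckb (3.43 TPM) lowest.

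Each list of nuclear-encoded oxidative genes was detected in most members and had a lower summed TPM than the list of glycolysis and glycogen. The 13 mitochondrially encoded mRNAs are not in these lists and summed to 252317, 293043 and 279231 TPM. The subunit list also holds Cox4i1 and Ndufa13 at 0, zeros that are taken up below. Nuclear-encoded subunits of oxidative phosphorylation were detected in 81 of 86 members, at a summed 22492, 23426 and 25076 TPM, led by the muscle isoform Cox6a2 (1636 ± 55.4 TPM) and the ATP synthase genes Atp5a1 (1516 ± 105 TPM) and Atp5b (1281 ± 67.1 TPM). In replicate 3 67 of 81 members lay above both other libraries, against 39.8% of all 13561 genes of at least 1 CPM. All 16 enzymes of the tricarboxylic acid cycle were detected, among them Ogdh at 475 ± 31.7 TPM, Mdh2 at 430.1 ± 17.4 TPM and the synthase Cs at 368 ± 15.4 TPM. Their median CV was 4.43% and that of the phosphorylation subunits 5.01%, beside 9.43% for genes of glycolysis and glycogen and 8.56% for fatty acid genes. The median was 6.76% over all genes of at least 1 CPM and 5.94% over those of 100 to 500 CPM. The sums over whole lists had a CV of 4.89% for glycolysis and glycogen, 5.53% for the phosphorylation subunits and 11.3% for fatty acid genes. For fatty acid uptake and oxidation 23 of 26 members were detected. Fabp3, the fatty acid binding protein of oxidative fibres, led with 275, 276 and 463 TPM and was highest in replicate 3, followed by Acadl, Lpl, Acadvl, Acaa2, Cd36, Etfa and Acadm between 250.0 and 180.3 TPM. Cpt1b, the gate of fatty acids into the muscle mitochondrion, and Etfb were listed at 0 in all libraries, a point taken up below.

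The fibre type genes described a fast muscle in all 3 libraries. The 10 sarcomeric myosin heavy chains summed to 28759, 26677 and 22333 TPM. Of that sum Myh4 took 90.3, 85.9 and 78.1% in replicates 1, 2 and 3. Myh1 took 4.66, 8.18 and 10.6%, Myh2 3.66, 4.44 and 8.35% and the slow Myh7 1.14, 1.26 and 2.5%. In replicate 3 the share of Myh4 was the lowest and the shares of the other 3 the highest. Together the 3 adult fast chains took 98.7, 98.5 and 97.1%. Myh6, the cardiac chain next to Myh7 in the genome and near-identical to it, had 46.4, 49.3 and 82 TPM, which may include shared reads and is uncertain. Myh7b had 10.1 TPM, and the embryonic Myh3 (1.93 TPM) and neonatal Myh8 (0.929 TPM) were low. Myh13 and Myh15 of specialised muscles stayed below 1 CPM. In bulk libraries fewer fibres of a type and less RNA per fibre cannot be told apart.

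The slow member of 12 slow and fast pairs was the minor one in every pair and library. On the TPM scale its share ranged from 1.76% ± 0.79 for Casq2 of the Casq2 and Casq1 pair to 26.4% ± 7.12 for Mybpc1 of the Mybpc1 and Mybpc2 pair. Myh7 took 1.25, 1.44 and 3.11% of Myh7 plus Myh4. Tnnc1 took 2.23, 2.66 and 4.48% of the troponin C pair and Atp2a2 1.48, 1.63 and 3.2% of the calcium pump pair. The median over the 12 pairs was 2.52, 3.08 and 5.44%, a mean of 3.68% ± 1.55 (SD, n = 3) that was 2.8% without replicate 3. All 12 pairs had their highest slow share in replicate 3. Mybpc1 and Actn2 are also used by fast fibres, and their pairs had the highest shares, 20.2, 24.7 and 34.2% and 12.6, 17.1 and 27.9%.

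**Figure D3:**
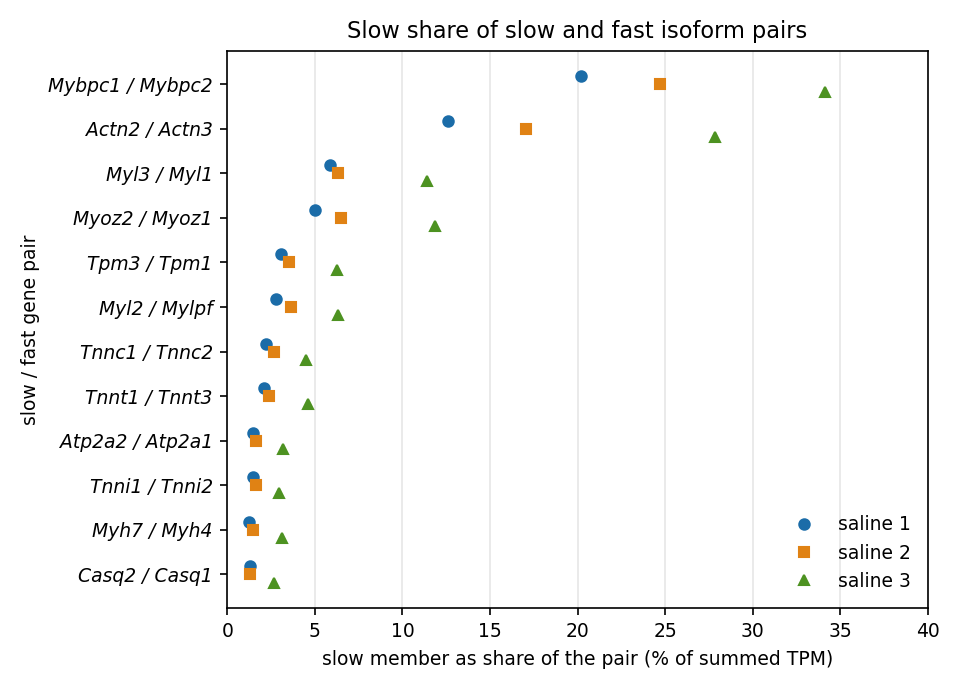
Share of the slow member (percent of the summed TPM of the pair, x axis) for 12 slow and fast gene pairs, 1 point per saline library. Replicate 3 is the rightmost point in all 12 pairs, and 10 pairs stay below 12% in every library.

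The whole slow list ran the same way. All 15 slow genes were detected and all 15 were highest in replicate 3, where 39.8% of all genes of at least 1 CPM were highest, with a summed 3104, 3295 and 5477 TPM and a ratio of replicate 3 to the mean of the others of 1.71. The mean of the sum was 3958 TPM with replicate 3 and 3199 TPM without it. The thin filament genes Tnnt1 (505, 559 and 918 TPM), Tnnc1 (471, 507 and 827.9 TPM), Tnni1 (116, 129 and 209.8 TPM) and Tpm3 (162, 176 and 275 TPM) ran with the light chains Myl2 (478, 567 and 929.7 TPM) and Myl3 (367, 359.5 and 601 TPM). Atp2a2, Casq2, Myoz2, Csrp3, Myl6b and Myh7b had CVs of 26.2% for Myh7b to 35% for Myoz2. Fast genes summed to 156009, 144205 and 124105 TPM and 13 of 15 were lowest in replicate 3, as were 36.6% of all genes of at least 1 CPM, the exceptions being Myh1 (1341, 2183 and 2366 TPM) and Myh2 (1053, 1184 and 1866 TPM). The ratio of the fast to the slow sum was 50.3, 43.8 and 22.7. Of the 17 chaperones 10 were highest and 4 lowest in replicate 3. Ppargc1a, the coactivator of mitochondrial biogenesis, had 19.8, 40.9 and 52.1 TPM, and the small heat shock genes Hspb7 (414, 482 and 878 TPM), Hspb6 (841, 959.7 and 1474 TPM) and Cryab (1170, 1073 and 1879 TPM) were highest in replicate 3. Hsp90ab1 (997 ± 5.09 TPM) and Hspd1 (122 ± 2.06 TPM) were level.

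Regulators and secreted factors of the fibre were present at lower TPM. Of the muscle transcription factors Myf6, the late myogenic factor of mature fibres, led with 139, 148 and 142 TPM, with Mef2c at 132 ± 10.3 TPM, Mef2d at 92.8 ± 6.56 TPM and Myod1, more active in fast fibres, at 35.5 ± 2.61 TPM. Tead1 and Esrra had 51.4 and 35.7 TPM. Of the secreted factors Ostn, musclin, had 188, 151 and 175 TPM, the vessel factors Vegfa and Vegfb 138 and 113 TPM, and Mstn, myostatin, which limits muscle mass, 63.5, 61 and 42.8 TPM. Fndc5, Cxcl12, Fstl1 and Il15 lay between 17.5 and 74 TPM. Il6 (0.0709 CPM) and Lif (0.362 CPM) were below detection, as was the hormone Fgf21 (0.00465 CPM).

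The neuromuscular junction was visible in 12 of 13 genes. The receptor anchor Rapsn had 32.4, 29.9 and 32.5 TPM and the adult receptor subunit Chrne 24, 24.6 and 16.8 TPM, while the fetal subunit Chrng was the member below 1 CPM (0.394 CPM). Chrnb1, Ufsp1, Musk, Ache, Dok7, Chrna1, Etv5, Colq, Lrp4 and Chrnd lay between 3.49 and 30.6 TPM. Of the degradation list 16 of 18 were detected, among them the ubiquitin ligases Trim63 (156, 169.9 and 157 TPM) and Fbxo40 (201 ± 23.3 TPM) and the autophagy receptor Sqstm1 (339 ± 36.3 TPM). Clock outputs were present, with Nr1d2 at 67.7, 79.4 and 75.8 TPM, Dbp at 43.7, 53.9 and 58.9 TPM and Bhlhe40 at 65.7, 71.3 and 82.9 TPM. Immediate early genes, which respond within minutes to activity and handling, had a median CV of 23.5% over 19 members, against 6.76% over all genes of at least 1 CPM. The nuclear receptor Nr4a1 had 77.3, 130.2 and 101 TPM, the phosphatase Dusp1 34.5, 59.3 and 49 TPM and Atf3 35.7, 12.4 and 13.7 TPM, with replicate 1 lowest in the first 2 genes and highest in the last. Xist, the RNA of the inactive X chromosome, had 119, 125 and 102 CPM, Ddx3y of the Y chromosome 0.67, 0.395 and 0.606 CPM, and Uty and Kdm5d 0.00487 and 0.00421 CPM.

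Genes of fasting and glucocorticoid signalling, which follow feeding and time of day, were detected in 17 of 19 members. Of the 18 members of at least 1 CPM on average, 10 were highest in replicate 2, against 30.6% of all genes, and 10 were lowest in replicate 3, against 36.6% of all genes. Pdk4, the kinase that shuts glucose out of the tricarboxylic acid cycle, had 145, 69 and 119 TPM, lowest in replicate 2. The glucocorticoid targets Tsc22d3 (116, 151 and 104 TPM) and Per1 (20.6, 27.7 and 18 TPM) were highest in replicate 2. Txnip, a brake on glucose uptake, had 242, 336 and 334 TPM and the atrophy ligase Fbxo32 109, 96.4 and 97 TPM. Of the imprinted and long noncoding list 11 of 15 were detected, with Cdkn1c at 22.2 ± 1.17 TPM, Grb10 at 21.4 ± 2.32 TPM and Meg3 at 4.92, 4.72 and 4.79 TPM. Of the developmental and cardiac isoforms Actc1, the actin of heart and embryonic muscle, led with 224, 154 and 177 TPM, far below the 43262 TPM of Acta1.

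The labelled tissue matched its markers: 8 of 8 skeletal muscle fibre genes were detected, at a summed 104574, 95668 and 90738 TPM. Markers of other cell types were a small part of the whole. The list with the highest sum was that of fibroblasts and fibro-adipogenic progenitors, the matrix-making cells between fibres, with 12 of 12 detected and a summed 1320, 1276 and 1372 TPM. Gsn, which muscle fibres also express, gave 639 ± 27.1 TPM of it. Without Gsn the sum was 707, 639 and 705 TPM, beside 744, 742 and 627 TPM for red blood cell genes, so which of these 2 lists leads depends on that gene and on the library. The proteoglycan Dcn had 213 ± 11.5 TPM and Pdgfra, which defines the progenitors, 9.3 ± 0.60 TPM. Col1a1, the main fibrillar collagen, had 120.4, 71.4 and 102 TPM and Col3a1 74.6, 50.2 and 81.6 TPM, replicate 2 being lowest in both. Over all 44 collagen genes, 33 of them detected, the sum was 644, 513 and 650.3 TPM, with the basement membrane collagens Col4a1 (66.1 ± 4.25 TPM) and Col4a2 (55.2 ± 4.4 TPM) and the microfibril collagen Col6a1 (60.4 ± 6.66 TPM) next. Tendon genes were all detected, 8 of 8, at a summed 427, 504 and 569 TPM, led by Fmod (222, 245 and 284 TPM) and including Tnmd (23.2, 26.2 and 35.1 TPM) and Scx (4.28, 4.81 and 5.87 TPM). All 8 tendon markers were highest in replicate 3, as were 39.8% of all genes of at least 1 CPM.

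Markers of blood vessels and nerve sheath were detected in nearly every case. Endothelial markers were detected in 12 of 12 members at a summed 271, 271 and 295 TPM, with Cdh5 at 59.1, 58.9 and 59.4 TPM and Pecam1 at 42.7, 44 and 44 TPM, CVs of 1.07% and 0.98%. Pericyte markers summed to 249, 251 and 272 TPM, 178 of them from Rgs5, and smooth muscle markers to 344, 325 and 394 TPM, with Acta2 at 109.9 ± 14.6 and Myh11 at 25.4 ± 1.5 TPM. Lymphatic markers came to 20.9, 24.1 and 26.5 TPM, with Lyve1 at 7.23, 10.6 and 10.8 TPM. Schwann cell markers were all detected, 10 of 10, and summed to 159.7, 168 and 205 TPM, with the myelin gene Pmp22 at 61.9, 68.6 and 74.9 TPM. Neuronal genes were detected in 0 of 8 members, and Prph was the highest at 0.651 CPM.

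Of the immune lists, that of macrophages had every marker detected. The 14 markers had a summed 169, 178 and 225 TPM, led by Lyz2 (55.3, 59.1 and 72 TPM) and C1qa (28.6, 28.8 and 36.4 TPM), with the tissue-resident marker Mrc1 at 8.13 ± 0.701 TPM and the monocyte receptor Ccr2 at 1.34 ± 0.195 TPM. Replicate 3 was highest in 12 of the 14, against 39.8% of all genes. The MHC class II genes Cd74 (39, 37.6 and 55.5 TPM), H2-Ab1 (9.61, 8.64 and 11.7 TPM) and H2-Aa (8.4, 8.11 and 11.2 TPM) were detected, while Flt3, Xcr1, Itgax and H2-Eb1 stayed below 1 CPM. Mast cell proteases were detected, with Mcpt4 at 12.4, 10.2 and 9.06 TPM and Cma1 at 7.32, 4.98 and 5.12 TPM. T and NK cell markers were detected in 0 of 14 members, the highest being Cd4 at 0.22 CPM, and granulocyte markers in 0 of 7, the highest being Csf3r at 0.345 CPM. Among B cell markers Ighm, the constant chain of IgM, was alone detected, at 153, 85.3 and 154 CPM, while the defining genes Ms4a1, Cd79a and Cd79b had 0.023, 0.0401 and 0.118 CPM. Igkc, the kappa light chain, was listed at 0, with all of its exon bases inside the span of Gm30211 on the same strand.

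Fat and blood differed in their steadiness. White adipocyte markers, 7 of 8 detected, summed to 284, 260.1 and 143 TPM, all 8 being lowest in replicate 3, against 36.6% of all genes of at least 1 CPM, a fold of 1.9 below the mean of the other libraries. Adipoq had 35.6, 30.3 and 11.4 TPM, Plin1 11.4, 9.26 and 3.46 TPM and Cfd 97.2, 64.4 and 41.6 TPM. Without replicate 3 the summed mean was 272 TPM, against 229 TPM with it. Plin4, which muscle fibres also express, gave 104 TPM of the sum. Red blood cell genes came to 744, 742 and 627 TPM, mostly the globins Hbb-bs (418 ± 41.5 TPM) and Hba-a1 (243 ± 24.8 TPM); Hba-a2, a near-identical copy of Hba-a1, had 0.0144 CPM, so the split between them is uncertain. Brown adipocyte genes were at 2 of 5 detected, Ucp1 being at 0.

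Satellite cells, the stem cells of the fibre, gave little RNA. Pax7, which defines them, had 1.37, 1.75 and 1.86 CPM, Chodl 10.2, 10.6 and 8.71 CPM and Fgfr4 1.94, 1.81 and 1.55 CPM. Proliferation genes were near the limit: of the cell cycle list 1 of 10 was detected, Rrm2 at 1.36 CPM, with Mki67 at 0.994 CPM and Top2a at 0.975 CPM. Markers of tissues outside muscle were low, with 0 of 5 liver genes and 0 of 6 cartilage and bone genes detected, and 2 of 8 epidermal genes, Krt10 at 1.33 and Cdh1 at 1.36 CPM. Krt5 and Krt14 were at 0, which allows up to 0.0137 CPM (3 counts over the group, covering counting error only). Of the cardiac list only Myh6 and Tnnt2 (3.41 CPM) were detected, and Nppa, Nppb and Myl7 were at 0.

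**Figure D4:**
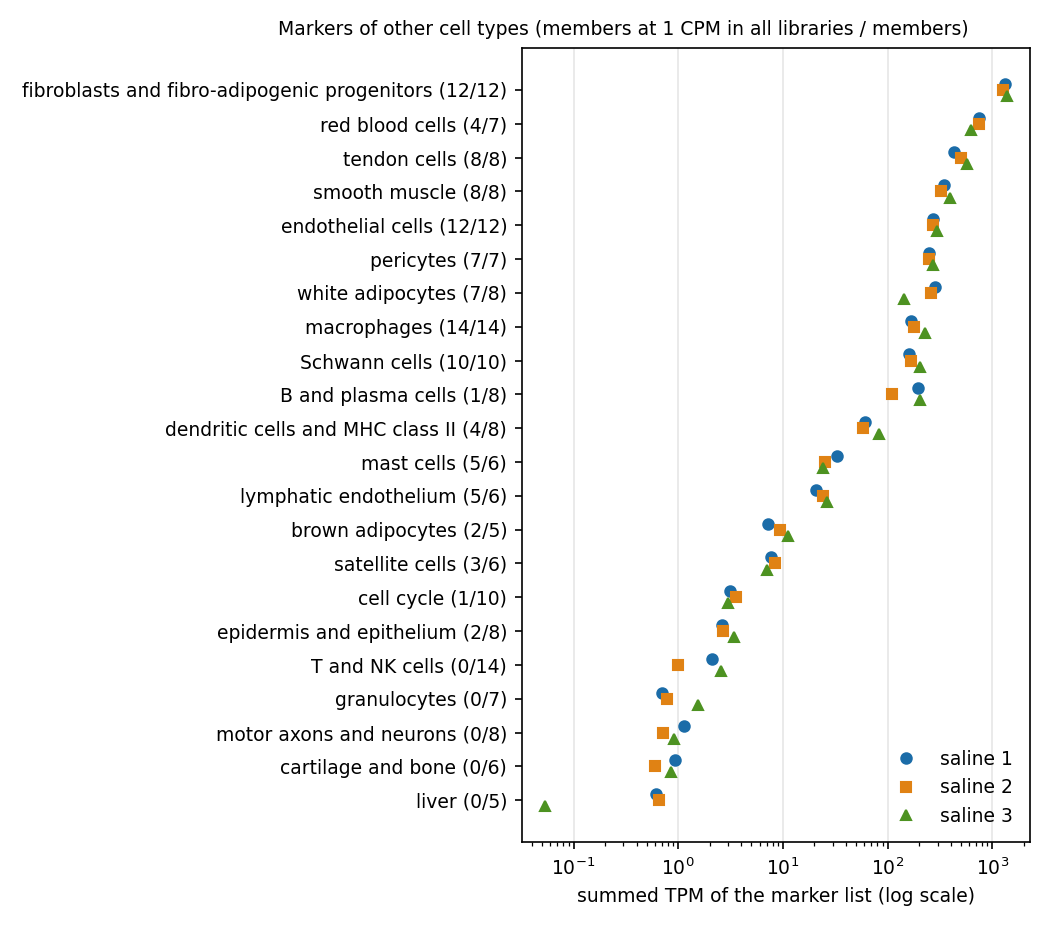
Summed TPM (log x axis) of 22 marker lists of other cell types, 1 point per saline library, with the number of members at 1 CPM in all libraries of the number listed in brackets. Fibroblast and progenitor markers lead with Gsn included, at a mean of 1323 TPM of which Gsn gives 639, white adipocytes are lower in replicate 3, and the lists with no detected member have means of 0.438 to 1.89 TPM.

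Some list members, several used by nearly every cell, were at 0 in all 3 libraries and could not be read as silent. Among them were Cox4i1, a core subunit of cytochrome c oxidase, the ribosomal protein genes Rpl13 and Rpl24, the autophagy gene Map1lc3b, the complex I gene Ndufa13, the clock gene Per3, the muscle gene Cpt1b, the satellite cell marker Cdh15, and Igf2. All 9 have at least 93.4% of their exon bases inside the annotated span, exons and introns together, of another gene on the same strand. Of the 13 protein-coding list members with 95% or more of their exon bases in such a span, 11 were at 0 and 1, Myom1, was detected. Of the other 804 protein-coding members 18 were at 0 and 690 were detected. Over all protein-coding genes 78.3% of 817 such genes were at 0, against 20.8% of 19848 genes that share no exon base with another span on their strand.

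A stretch of chromosome 8 shows the pattern gene by gene. From Trappc2l to Tcf25 (GRCm38 chromosome 8, 122611640 to 123403835) lie 20 protein-coding genes, a window chosen after the zeros were seen. The 12 on the plus strand, Cdh15, Rpl13 and Spg7 among them, were all at 0, and each lies wholly within the span of the predicted gene Gm20388. The 8 on the minus strand all had counts, up to 131 CPM for Ankrd11. How the deposited counting treated overlapping spans is not given in the sources used here, and its part in these zeros was not tested.

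The spread between libraries was measured over all genes. The biological coefficient of variation (the spread between libraries beyond counting error, from edgeR) was 0.103 over 16980 genes, and 0.0741 without replicate 3. The median CV was 10.7% for genes of 1 to 5 CPM, 5.08% for genes of 50 to 100 CPM and 10.5% for the 91 genes of 1000 CPM or more. Counting error alone would give 7.63%, 1.44% and 0.256% at those levels, and the spread of the most abundant genes lay above it. A CV above 50% was found for 47 of 13561 genes of at least 1 CPM. The number was 79 without replicate 1, 96 without replicate 2 and 28 without replicate 3, and 16 of genes of at least 5 CPM. Genes that differed by more than 1.5-fold came to 1.44% between replicates 1 and 2, 3.99% between 1 and 3 and 3.07% between 2 and 3. No pair was alike within sampling noise. The chi-square per gene, which averages 1 where only counting error separates a pair, had means of 36.7, 102 and 63.8. In the median gene, where counting error alone would give less than 1, it was 1.38, 2.53 and 2.24. The tables are thus not 1 library deposited more than once, which does not show that they come from separate animals.

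The genes that varied most were led by replicate 3. Of the 20 protein-coding genes of at least 5 CPM with the highest CV, replicate 3 was the farthest library in 16. Sln, the sarcolipin that slows the calcium pump in oxidative fibres, had 2.16, 3.8 and 12.7 CPM, a CV of 91%. Mustn1, a small nuclear gene of muscle and tendon, had 61.6, 62.1 and 215 CPM and Pln 11.7, 10.9 and 24.1 CPM. Fat genes ran opposite: Scd1, the desaturase of lipid synthesis, had 925, 1001 and 258 CPM, Lep 8.98, 10.03 and 1.69 CPM, Pck1 6.81, 7.97 and 1.14 CPM, Plin1 22.1, 17.7 and 6.52 CPM, Cidec 11.5, 11.6 and 3.56 CPM and Adipoq 20.4, 17.2 and 6.41 CPM. Interferon-inducible genes were higher, with Iigp1 at 8.05, 10.8 and 30.9 CPM, Gbp3 at 4.14, 5.63 and 10.9 CPM, Tap1 at 4.49, 4.83 and 10.3 CPM and Cd274 at 3.86, 4.88 and 9.17 CPM. Rrad (7.0, 3.36 and 15.1 CPM), Prima1 (9.03, 10.6 and 3.41 CPM) and Dusp18 (41.3, 63.6 and 108 CPM) also had replicate 3 at an end of their range. Other libraries led in Arrdc2, highest in replicate 2 (21.2, 63.6 and 10.4 CPM), Atf3, highest in replicate 1 (32, 11 and 12 CPM), and Cish (17.5, 4.45 and 21 CPM) and Ankrd1 (19.7, 6.2 and 27.5 CPM), lowest in replicate 2. Of 10059 genes of at least 5 CPM, replicate 3 was at least 1.5-fold above both others in 80 and below both in 47, against 10 and 16 for replicate 1 and 8 and 20 for replicate 2.

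Whole lists showed the same split. Lipid synthesis genes summed to 824, 878 and 439.9 TPM, replicate 3 being below both others in 11 of 13, against 36.6% of all genes, with Scd1 and Fasn (41.7, 33.4 and 17 TPM) among them, while Dgat2 (30.6, 30.7 and 30.9 TPM) and Dgat1 (8.3, 8.18 and 7.97 TPM) were level. Scd1 gave 360.5 TPM of the mean sum of 714 TPM, which was 851 TPM without replicate 3. A list of 25 interferon-inducible genes was added after the variable genes were seen, so its direction is no independent evidence: 23 of its 23 members of at least 1 CPM were highest in replicate 3, including B2m (259.9, 288 and 352 TPM), H2-D1 (147, 163 and 209 TPM), Gbp2 (11.4, 14.9 and 22 TPM) and Irf1 (5.77, 6.33 and 10.3 TPM). Over all genes of at least 1 CPM the share was 39.8%. The macrophage, MHC class II, tendon and Schwann cell sums were higher in replicate 3 as well, by a ratio of 1.3, 1.4, 1.22 and 1.25 to the mean of the others. Their part in the fibre type difference was not tested.

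**Figure D5:**
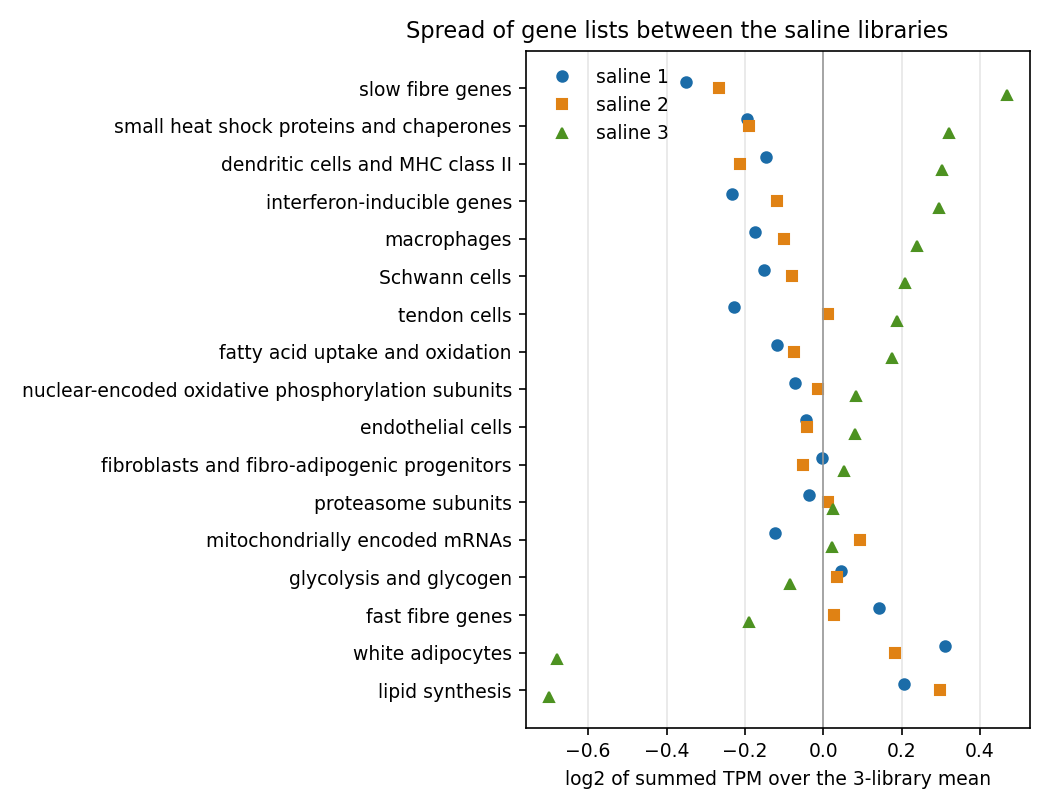
Log2 of the summed TPM of 17 gene lists over their 3-library mean (x axis), 1 point per saline library. Slow fibre genes lie highest and lipid synthesis and white adipocyte genes lowest in replicate 3, while proteasome subunits and fibroblast markers stay near 0 in all libraries.

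At the steady end, the 10 genes of at least 50 CPM with the lowest CV included Hnrnpc, Snrnp70, Tspyl1, Foxn3, Timp2, Mapk12, Dnajb6, Cdc37 and Sod1. Hnrnpc and Snrnp70, which handle pre-mRNA, had 70.1, 70.1 and 70.01 CPM and 93.4, 93.6 and 93.3 CPM. Foxn3, a forkhead repressor, had 219, 218 and 218 CPM and Sod1, superoxide dismutase, 79.9, 80.5 and 80.3 CPM, a CV of 0.393%. They were chosen for their low CV, so the values only describe these libraries. Proteasome subunits, detected in 37 of 39 members, had a median CV of 2.85%, and cytosolic ribosomal proteins, in 77 of 84, one of 4.49%. The median was 6.76% over all genes of at least 1 CPM, but it depended on level. It was 5.51% for genes of 10 to 50 CPM and 5.08% for genes of 50 to 100 CPM.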

How the data were processed

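RNA was sequenced from the gastrocnemius of saline-injected mice, and the 3 count tables were used as deposited. Per the submitters' processing notes the authors used cutadapt 2.10, STAR 2.7.5a, HTSeq 0.12.4 and DESeq2 1.30.0 with the mm10 genome. The deposited values are raw counts per gene. The annotation release, the counted feature and the strand setting were not stated in the sources used here. Reads counted to no gene (16.8 to 17.8% of all counts per library, mostly alignments that were not unique, 11.7 to 12.7%) were left out of library sizes.

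The tables pair no symbols with their Ensembl IDs, so symbols, biotypes, exon lengths and positions came from GENCODE M21 (GRCm38), in which 55141 of 55401 IDs matched, 54349 of them with the same version. CPM used TMM factors (0.984 to 1.03) from edgeR 4.0.16 in R 4.3.3, fitted on the saline libraries alone. TPM used merged exon lengths. Dispersion came from edgeR with an intercept only, after removing genes of low count with its default filter. In simulated counts a biological coefficient of variation of 0.2, above the 0.103 found here, was recovered as 0.197. Widely varying genes put in at 1 were recovered at a median of 0.795, so their spread was underestimated. No comparison between groups was made and no p-value was computed. Errors printed after ± are SDs over the 3 libraries, and the floor for a count of 0 covers counting error only.

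Genes were named by rule: the 25 with most CPM, the 25 nuclear protein-coding genes with the highest TPM, the 10 nuclear noncoding genes with most CPM, and the 20 protein-coding genes of at least 5 CPM with the highest and the 10 of at least 50 CPM with the lowest CV. Of each list every member could be named where it has at most 15, otherwise the 8 with the highest TPM and those below 1 CPM. Genes named beyond it were singled out after their values were seen: Gapdh, Dmd, Mrln, Myom1, Tpt1, Gm30211 and, in the chromosome 8 stretch, Trappc2l, Tcf25, Spg7, Ankrd11 and Gm20388. Mybpc1 and Actn2 are named as members of the 12 isoform pairs. The members and lists were chosen with earlier results of these data known, and the list of interferon-inducible genes after the variable genes were seen. Some genes that the rule names are not reported here. Motifs were searched as exact letters on both strands. Alternatives covered the scaling (raw library size, DESeq2 1.42.0 size factors, upper quartile), the length used, the detection threshold, the denominator and each library left out in turn.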

Additional observations from a re-analysis of the deposited data

How the results depend on the processing

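With rows that name no gene in the denominator, the 10 most abundant genes held 21.7% and the mitochondrial genome 12.1%. Without mitochondrially encoded genes the 10 most abundant held 23%, and a mean of 189.7 genes held 50% of the counts. Per exon length (TPM) a mean of 19.3 genes held 50%, and the shares were 29.3% for the mitochondrial genome, 85.3% for protein-coding genes, 17.8% for the contractile apparatus and 5.54% for glycolysis, glycogen and phosphagen. Of genes of at least 5 CPM, 16 had a CV above 50%. Leaving out each library in turn gave 28 to 96 such genes of at least 1 CPM, a biological coefficient of variation of 0.0741 to 0.12, a share of 25.9 to 26.9% for the 10 most abundant genes, 81 to 89.5 genes holding 50% of the counts, a mitochondrial share of 14.3 to 15.3%, a protein-coding share of 95.3 to 95.7%, a contractile share of 19.9 to 21%, a glycolytic share of 6.19 to 6.55%, 13316 to 13345 detected genes, an Myh4 share of 82 to 88.1% and a slow share of 2.8 to 4.26%. The lowest of these for the biological coefficient of variation and for genes with a CV above 50% were the values without replicate 3. The other alternatives moved these results by less than the spread between libraries, or a count by less than 1.5 times. Summed TPM of 5 of 25 cell type lists moved by more than the SD with the longest transcript as length. Leaving out 1 of 3 libraries cannot move a mean by more than the SD, so this measure says nothing about single libraries. White adipocyte markers, for example, went from 229 to 272 TPM without replicate 3. No paired analysis was possible because 1 group was described. With 3 libraries an SD is itself imprecise, and depth sets a floor of 0.0137 CPM over the group.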
